A study of Mus musculus with 61 samples.

Results

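Receptors for IL-12, IL-18, the IL-1 family, IL-10 and interferon-gamma were followed through 61 RNA-seq libraries of mouse T cells and spleens that differed in STAT5B. The genes were chosen by symbol as Il12rb1, Il12rb2, Il18r1, Il18rap, Il1rl1, Il1r1, Il1r2, Il10ra, Ifngr1 and Ifngr2, 10 of the 24421 genes counted. All 10 passed the filter on low counts in every comparison. The comparisons asked how STAT5B and its variants at N642 and Y665 change gene expression in T cells and in the spleen.

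STAT5B is the transcription factor that IL-2 and IL-7 activate through JAK kinases in T cells. The genes described here encode the other side of cytokine sensing, by which a T cell is steered toward type 1 responses or restrained. IL-12 binds a pair of chains, Il12rb1 and Il12rb2, and signals through STAT4 toward production of interferon-gamma. Il12rb1 is also part of the IL-23 receptor. IL-18 binds Il18r1, and Il18rap joins it to signal through MyD88. Il1rl1, also called ST2, binds IL-33 and is known from mast cells, type 2 lymphoid cells and some regulatory T cells. Il1r1 is the signalling receptor for IL-1, and Il1r2 is a decoy that binds IL-1 without signalling. Il10ra is the ligand-binding chain of the receptor for the restraining cytokine IL-10. Ifngr1 binds interferon-gamma and Ifngr2 completes the signalling receptor.

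The first experiment used naive CD4+ T cells sorted from pooled lymph nodes and spleens of C57BL/6 mice, which like those of all other groups were aged 2 months. The cells were activated through the T cell receptor and CD28, transduced with a retrovirus, kept for 48 h with IL-2 and sorted as CD4+ and GFP+. The virus was empty or carried STAT5B, STAT5B N642H, STAT5B Y665H or STAT5B Y665F, and each vector gave 3 libraries from WT cells and 3 from Stat5a/b-null cells. The null cells came from floxed Stat5a/b mice with Cd4-Cre, a Cre that is active in developing thymocytes, so that CD8 cells of these mice lack the genes too. The genotype entry names floxed Stat5a/b for all 30 of these libraries, those titled WT included, and the background was read from the titles. The second experiment used total splenic T cells, isolated with beads, from WT mice and from mice carrying Y665H or Y665F in their own Stat5b. They were cultured in IL-2 plus IL-7 for 24 h, with 4 libraries per genotype, and 3 further Y665F libraries had no added interleukin. The third set was spleen with no stimulation named, 4 WT, 5 Y665H and 7 Y665F libraries, whose titles say Splenocyte where the tissue entry says spleen. The extraction text speaks of mammary tissue for all 61 libraries, and the material was taken from the tissue entries. Knock-in mice carry the variant in every cell, and nothing in the labels says whether libraries of a group came from separate mice, so that the p-values measure the spread between these libraries.

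Of the 10 genes, 5 are neighbours.
Il1r2, Il1r1, Il1rl1, Il18r1 and Il18rap lie in this order on chromosome 1 of GRCm38 from 40074079 to 40551705, all on the plus strand, with Il1rl2 between Il1r1 and Il1rl1. Only 136 bases separate the annotated end of Il1rl1 from the start of Il18r1. The other genes are scattered, with Il12rb2 on chromosome 6 from 67291318 to 67376188, Il12rb1 on chromosome 8 from 70808449 to 70821424 and Il10ra on chromosome 9 from 45253837 to 45269149. Ifngr1 lies on chromosome 10 from 19591949 to 19610229 and Ifngr2 on chromosome 16 from 91547072 to 91565623. STAT5 dimers bind the palindrome TTCNNNGAA, and the wider form TTCNNNNGAA is the preferred site of STAT6. The fixed letters of both forms read the same on either strand, so that a search covers both strands, and the matches of the forms in these genes did not overlap. They were searched in the RefSeq promoter windows of GRCm38.p6, which reach from upstream of a start site to just inside it. Of all 32851 windows, 8.3% held TTCNNNGAA and 6.95% held TTCNNNNGAA, and of the 27025 genes with windows 9.55% and 8.01% had a match in at least 1. Windows were at hand for 8 of the 10 genes, with 12 start sites, and not for Il12rb1 and Il10ra. TTCNNNGAA was found for Il12rb2, Il18r1 and Il1r2, and TTCNNNNGAA for Il18r1, Il18rap and Ifngr2. The matches in the genes other than Ifngr2, which was called in no comparison, are shown with the palindrome in capitals, 5′ to 3′ on the strand of the gene.
Il12rb2, chr6:67376294-67376320, minus strand, upstream of the gene: ttcccttttTTCTCAGAAccgcactaa
Il18r1, chr1:40465778-40465804, plus strand, in an exon: cggggttagTTCTGGGAActgtggagc
Il18r1, chr1:40465845-40465871, plus strand, in an intron: gtacaggtcTTCCCAGAActgaaagct
Il18r1, chr1:40465424-40465451, plus strand, upstream of the gene, wider form: ggccttcgtTTCTTTTGAAcagtttaaa
Il1r2, chr1:40085973-40085999, plus strand, in an exon: gggtgctttTTCAAGGAActtccgact
Il18rap, chr1:40515186-40515213, plus strand, upstream of the gene, wider form: gagagagagTTCATCAGAAgaaagcctt
The matches are matches of letters in these windows, and binding was not measured in the files used here.

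Gene-assigned reads per library numbered 18825994 to 49850689 in the CD4+ cultures, 2017012 to 27394249 in splenic T cells and 24203179 to 43330536 in spleens. Stat5b stood at 2.78, 5.30 and 9.49 CPM, a gene's reads scaled to the size of its library, in the null libraries with the empty vector and at 187 to 209 CPM in the WT libraries with it, as the titles have it. The CD4+ cultures held 633 to 1184 CPM of Cd4, and their summed B cell, NK cell and neutrophil marker lists stayed at or below 5.81, 0.659 and 6.64 CPM. The spleens and splenic T cells were mixed. The Y665F library 3 of stimulated splenic T cells held 525 CPM of B cell markers and 1077 CPM of erythroid markers, against at most 141 and 84.9 in the other splenic T cell libraries. The Y665H spleen library 1 held 769 CPM of erythroid markers and 114 CPM of neutrophil markers, against 3594 to 5126 and 359 to 1486 in the other 4 Y665H spleens. In mixed samples, fewer cells of a type and less RNA per cell cannot be told apart.

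Per kilobase of exon, Ifngr1 had the highest mean level of the 10 genes in the WT libraries of all 3 materials, though in spleen Il10ra, at 60.6 ± 7.18 CPM per kb (SD, n = 4), differed from it by less than their SDs. Its mean level was 27.1 ± 5.12 CPM per kb (SD, n = 3) in WT CD4+ cells with the empty vector, 388 ± 79.9 (SD, n = 4) in stimulated WT splenic T cells and 64.3 ± 5.30 (SD, n = 4) in WT spleen. On the same scale the IL-1 receptors were lowest in the T cells, with 0.675 ± 0.295 CPM per kb of Il1r2, 0.061 ± 0.0191 of Il1rl1 and 0.0264 ± 0.0248 of Il1r1 in the WT CD4+ cells (SD, n = 3). In WT spleen, Il1r1 reached 8.74 ± 1.08 CPM per kb (SD, n = 4), beside Il18rap at 8.29 ± 0.591, neighbours in order that differed by less than their SDs.

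A gene was called where the quasi-likelihood test of edgeR gave it a p under 0.05 after Benjamini-Hochberg adjustment over all genes of the fit and its log2 fold change lay beyond 1, up or down. The heat map of fold changes gives all 10 genes in the 25 comparisons. Comparisons of different variants with the same control group share its libraries.

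**Figure D1:**
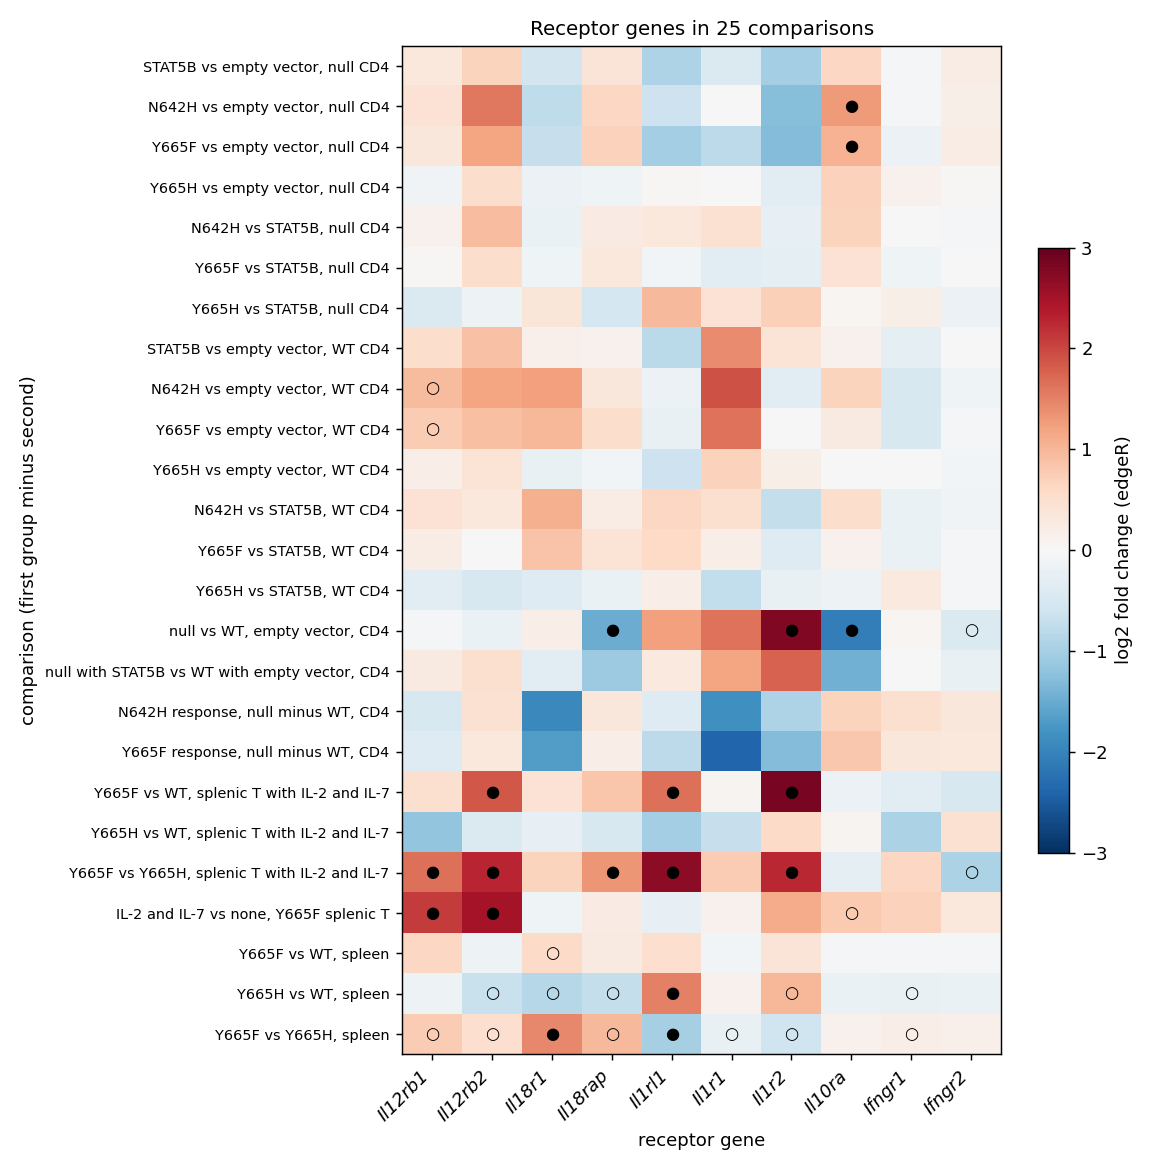
Log2 fold change of each receptor gene (columns) in each comparison (rows, first group minus second), on a colour scale from -3 to 3. Filled circles mark calls and open circles mark an adjusted p under 0.05 with a log2 fold change under 1; calls are most frequent in the row for Y665F against Y665H splenic T cells, with 5 of 10 genes.

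In the null CD4+ cells, Il10ra was called higher with both N642H and Y665F. With the empty vector its level was 4.34, 6.90 and 8.94 CPM in libraries 1, 2 and 3, with N642H 15.5, 17.7 and 16.8 CPM, and with Y665F 16.1, 15.6 and 10.54 CPM. No library with either variant reached down to the empty vector. Il10ra was higher with N642H by a log2 fold change of 1.27 (SE 0.27, adjusted p = 0.00509) and with Y665F by 1.04 (SE 0.27, adjusted p = 0.021). With no replicate block in the fit it was the only call among the 10 genes in each comparison, where 2.88% and 2.37% of all genes were called. The Y665F call ended without library 1 or 2 of the empty vector, with adjusted p of 0.0858 and 0.0672, and without library 1 or 2 of Y665F, with 0.0931 and 0.0755. With STAT5B, Il10ra stood at 10.3, 11.8 and 9.003 CPM, above every empty-vector library but with a log2 fold change of 0.62 and an adjusted p of 0.288. With Y665H it was spread from 6.61 to 15.1 CPM, with a log2 fold change of 0.68 and an adjusted p of 0.896.

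The decoy receptor Il1r2 lay the other way. Its level in the null cells was 6.82, 13.8 and 5.97 CPM with the empty vector, 2.92, 4.39 and 4.05 CPM with N642H and 2.31, 5.12 and 3.51 CPM with Y665F. The groups with N642H and Y665F did not overlap the empty vector, and Y665H, at 3.96, 13.3 and 4.04 CPM, did. The log2 fold change was -1.27 (SE 0.43) with N642H and -1.30 (SE 0.43) with Y665F, with adjusted p of 0.065 and 0.0647, which miss the threshold. Without library 3 of the empty vector both were called, at -1.47 (adjusted p = 0.0414) and -1.51 (adjusted p = 0.0422). Null libraries with the same number deviated together, and with the replicate number as a block Il1r2 was called lower with N642H by -1.21 (adjusted p = 9.24e-04) and with Y665F by -1.30 (adjusted p = 6.00e-04).

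The same block changed the result for the inducible chain of the IL-12 receptor. Il12rb2 in the null cells was 3.08, 7.71 and 13.6 CPM with the empty vector, 10.8, 30.7 and 33.9 CPM with N642H and 8.31, 23.7 and 24.5 CPM with Y665F. Each library with a variant was higher than the empty-vector library of the same number, while the groups overlapped. Without the block the log2 fold changes of 1.59 (SE 0.65, adjusted p = 0.135) and 1.19 (SE 0.65, adjusted p = 0.306) were not called. With the block they were 1.67 (adjusted p = 1.08e-04) and 1.27 (adjusted p = 0.00161). Il12rb1, its partner, was 30.8, 43.4 and 56.0 CPM with the empty vector and 56.2, 60.8 and 63.1 CPM with N642H. These groups did not overlap, by a narrow gap, and the log2 fold change of 0.43 (SE 0.18, adjusted p = 0.135) was not called.

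The IL-18 receptor chains had opposite signs in the null cells. Il18r1 was 53.8, 75.0 and 26.8 CPM with the empty vector, 30.4, 41.2 and 21.9 CPM with N642H and 32.3, 49.4 and 15.7 CPM with Y665F. Its log2 fold changes of -0.76 (adjusted p = 0.229) and -0.70 (adjusted p = 0.306) did not pass. Il18rap was 6.05, 8.03 and 4.07 CPM with the empty vector and 10.6, 11.2 and 6.82 CPM with N642H, a log2 fold change of 0.63 (adjusted p = 0.298). With Y665F it was 11.9, 13.9 and 4.0 CPM, a log2 fold change of 0.70 (adjusted p = 0.266), and it was called without Y665F library 3, at 1.05 (adjusted p = 0.02). Ifngr1 and Ifngr2 kept within 62.1 to 94.7 and 23.0 to 38.6 CPM over all 15 null libraries. Il1rl1 and Il1r1 did not exceed 1.62 and 0.791 CPM in any of them.

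STAT5B itself and Y665H called none of the 10 receptor genes against the empty vector in null cells, where edgeR called 0.477% and 0.0249% of all genes, and DESeq2 also called none. At an unadjusted p under 0.05 there were 2 genes with STAT5B, Il1r2 and Il10ra, and 1 with Y665H, Il10ra. The share of all genes at this unadjusted threshold is not given here or below, so that such counts cannot show an excess among the receptor genes. Against STAT5B, edgeR and DESeq2 called 0 of the 10 for N642H, Y665F and Y665H, with 1, 0 and 1 at an unadjusted p under 0.05 and with 0.0696%, 0.00994% and 0.149% of all genes called.

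**Figure D2:**
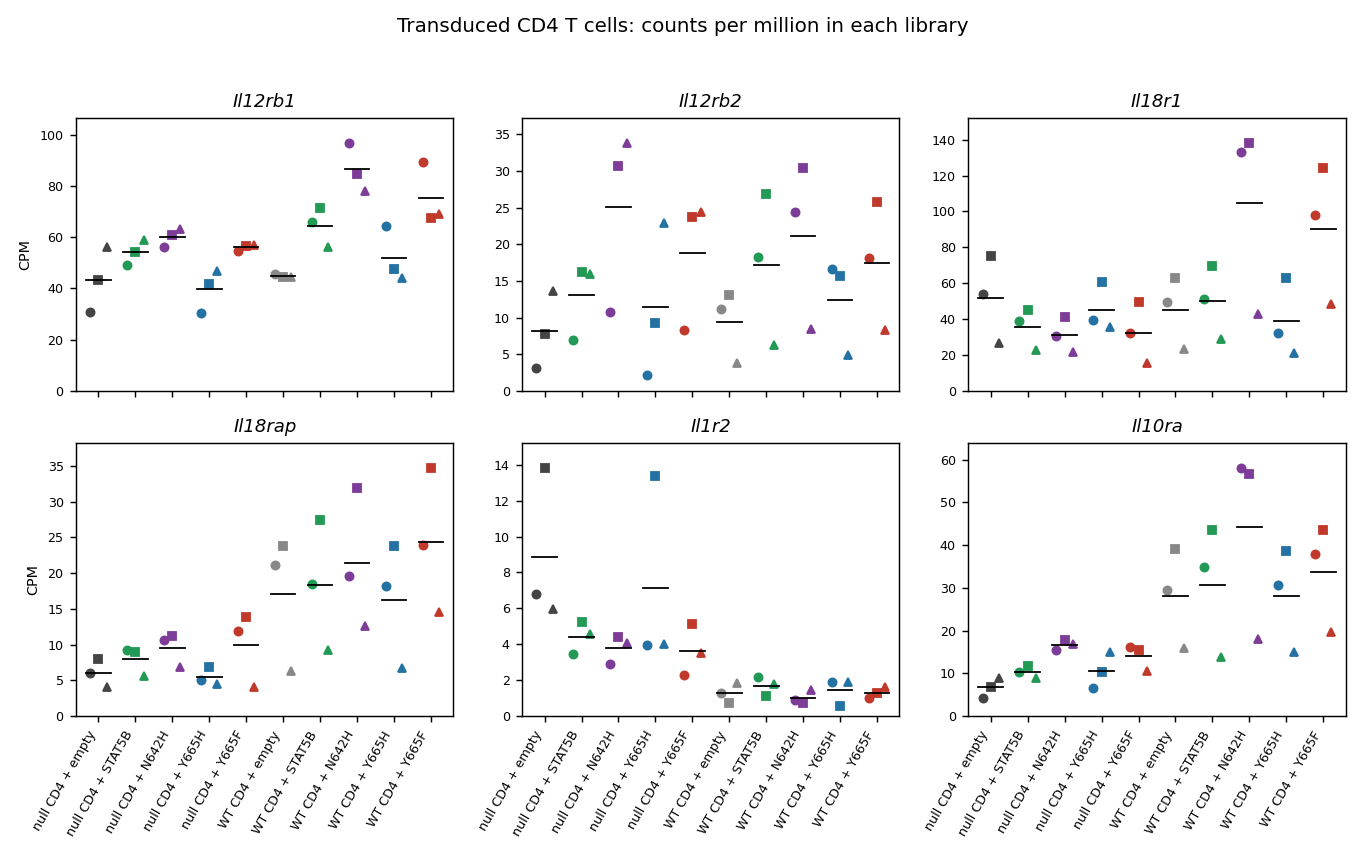
CPM of 6 receptor genes in each CD4+ library (points; circle, square and triangle for libraries 1, 2 and 3) by background and vector, with the group mean as a line. The group means of Il10ra are lower and those of Il1r2 higher in null than in WT cells, and Il18r1 is above its empty-vector library of the same number in each WT library with N642H or Y665F.

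In WT CD4+ cells no receptor gene was called with any vector in the fit without the replicate block. The block changed this for Il12rb2 and Il18r1, with values given under the dependence on processing. The comparisons with the empty vector called 0.00975% of all genes for STAT5B, 0.985% for N642H, 0.707% for Y665F and 0.00488% for Y665H, and those with STAT5B called 0.00488% for N642H, 0.0% for Y665F and 0.00488% for Y665H. DESeq2 called 0 of the 10 in each. At an unadjusted p under 0.05 there were 2, 4, 3 and 0 genes in the comparisons with the empty vector and 2, 0 and 1 in those with STAT5B. Il12rb1 passed the adjusted p but not the fold. It was 45.8, 44.6 and 44.4 CPM with the empty vector, 96.8, 84.6 and 78.0 CPM with N642H and 89.4, 67.6 and 68.9 CPM with Y665F. All variant libraries were above all empty-vector libraries, by a log2 fold change of 0.96 (SE 0.15, adjusted p = 0.00421) and 0.75 (SE 0.15, adjusted p = 0.022), where 1.52% and 1.26% of all genes had an adjusted p under 0.05. STAT5B lay between them by its mean, at 65.8, 71.2 and 56.1 CPM (log2 fold change 0.53, adjusted p = 1).

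Il18r1 in WT cells was 49.2, 63.1 and 23.5 CPM with the empty vector, 133, 138 and 42.6 CPM with N642H and 97.98, 124 and 48.1 CPM with Y665F. Library 3 was the lowest of its group with every vector, and the groups overlapped. The log2 fold changes of 1.23 (SE 0.49, adjusted p = 0.342) and 1.00 (SE 0.49, adjusted p = 0.371) were not called without the block. Both were called with it. Il12rb2 was 11.2, 13.0 and 3.77 CPM with the empty vector and 24.4, 30.5 and 8.43 CPM with N642H, with library 3 again the lowest. Its log2 fold change was 1.19 (SE 0.60, adjusted p = 0.52) without the block and was called only with it.

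The Il18r1 means with N642H and Y665F were below the empty vector in null cells and above it in WT cells. The difference of the N642H responses, null minus WT, was -1.94 on the log2 scale (SE 0.68, adjusted p = 0.301) and that of the Y665F responses -1.67 (SE 0.68, adjusted p = 0.438). Neither passed without the block, and both passed with it. Without the block no receptor gene was called in these differences, where 0.341% and 0.419% of all genes were. DESeq2 called none either, and 3 and 2 genes had an unadjusted p under 0.05.

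Loss of Stat5a/b itself was read from the empty-vector libraries of both backgrounds. Here 3 of the 10 receptor genes were called, with 4.68% of all genes called. Il1r2 was higher in null cells, at 6.82, 13.8 and 5.97 CPM against 1.29, 0.727 and 1.85 CPM in WT cells, a log2 fold change of 2.78 (SE 0.47, adjusted p = 1.81e-04). In the order of group means all 5 null groups came before all 5 WT groups, and the lowest null library, at 2.31 CPM, was above the highest WT library, at 2.18 CPM. Neighbours within a background overlapped.

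Il10ra was lower in null cells, at 4.34, 6.90 and 8.94 CPM against 29.5, 39.1 and 15.99 CPM, a log2 fold change of -2.07 (SE 0.44, adjusted p = 0.00165). All 5 WT groups had higher means than all 5 null groups, from 44.2 ± 22.7 CPM (SD, n = 3) in WT cells with N642H to 6.73 ± 2.30 CPM in null cells with the empty vector, and within this order only the last step, from null cells with STAT5B to the empty vector, did not overlap. Il18rap was lower by a log2 fold change of -1.49 (SE 0.49, adjusted p = 0.0418), at 6.05, 8.03 and 4.07 CPM against 21.1, 23.7 and 6.25 CPM. Its groups overlapped, and the call ended without any of libraries 1, 2 and 3 of the null cells (adjusted p = 0.107, 0.0592 and 0.153) or libraries 1 and 2 of the WT cells (0.132 and 0.201). Ifngr2 was lower by less than the fold minimum, at 29.9 ± 3.06 against 40.5 ± 4.41 CPM (SD, n = 3), a log2 fold change of -0.44 (adjusted p = 0.0364), where 13.9% of all genes had an adjusted p under 0.05.

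Il12rb1, Il12rb2, Il18r1 and Ifngr1 did not pass, with log2 fold changes of -0.05, -0.20, 0.20 and 0.05. Il1r1, at under 1 CPM in both groups, had a log2 fold change of 1.62 (adjusted p = 0.0835) and was called without null library 1 (1.97, adjusted p = 0.0497) or WT library 3 (2.69, adjusted p = 0.0139). The cultures also differed in other listed genes: the summed regulatory T cell list was 863 to 1082 CPM in null and 1209 to 1787 CPM in WT cells, and the CD8 genes were 15.1 to 20.3 and 6.29 to 7.62 CPM, and their part in the receptor differences was not tested. When null cells with STAT5B were set against WT cells with the empty vector, 0 of the 10 genes were called by edgeR, where 0.778% of all genes were, and 3 had an unadjusted p under 0.05. Il1r2 stood at a log2 fold change of 1.77 (adjusted p = 0.0578) and Il10ra at -1.44 (adjusted p = 0.111), and DESeq2 called both. Without WT library 3 edgeR also called both, at 2.16 (adjusted p = 0.0324) and -1.71 (adjusted p = 0.0315).

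The pathway around these receptors was followed in a list of 37 ligands, partner chains, kinases and target genes, all of which were tested. Its main mover in null cells was Socs1, the feedback inhibitor of JAK kinases, which rose with STAT5B, N642H and Y665F by log2 fold changes of 2.16, 2.79 and 2.64 and was lower with Y665H than with STAT5B by -1.43. Il18, the ligand of Il18r1, was lower with Y665F by -1.60, and no other gene of the list was called in the comparisons with a vector in null cells, nor any of the 37 in WT cells. Between the empty-vector groups 5 genes of the list were higher in null cells and 1 lower, where 4.68% of all genes were called in either direction. Among the higher ones were Tbx21, the type 1 regulator T-bet, by 3.79, Ifng by 3.40, Irf1 by 2.20 and Il18 by 1.86, and Socs1 was lower by -3.17. Against WT cells, null cells with STAT5B were still higher in Ifng, Tbx21 and Irf1.

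Of the 5 other genes within or beside the receptor cluster on chromosome 1, Slc9a2, a sodium and hydrogen exchanger downstream of Il18rap, was called with N642H and Y665F in both backgrounds. In null cells it rose by log2 fold changes of 2.04 and 2.38 and in WT cells by 2.60 and 2.28, at means of at most 4.54 CPM. Slc9a4, which lies between Il18rap and Slc9a2, was called with N642H in WT cells by 4.20. Map4k4, Il1rl2 and Mfsd9 were not called in any CD4+ comparison. Between the empty-vector groups Il1rl2 was lower in null cells by -0.99 (adjusted p = 0.00354) and Map4k4 higher by 0.49 (adjusted p = 0.00349). Both were under the fold minimum, where 13.9% of all genes had an adjusted p under 0.05.

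Over the means of the 10 CD4+ groups, the gene whose log2 level followed Il10ra most closely was Tgm2 (Pearson's r = 0.987), the gene nearest to Il18rap was F2r (0.993), and the gene nearest to Il12rb2 was Snhg3 (0.946), among 9716 genes compared. For Il18r1 it was Crat (0.972) and for Il12rb1 Cul7 (0.983). The groups share libraries of 2 backgrounds, and the values are a description of these 10 points.

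In splenic T cells from the knock-in mice, 5 of the 10 receptor genes were higher in Y665F than in Y665H cells after culture in IL-2 plus IL-7, and none was called lower, where 4.78% of all genes were called in either direction and 3.43% higher. Ranges did not overlap for 7 of the 10 genes, against 14.5% of all genes. The median log2 fold change of the 10 was 1.04, and that of all genes 0.13. Against WT cells, 3 genes were called higher and none lower in Y665F cells, where 1.53% of all genes were called in either direction and 1.15% higher, and ranges of 5 did not overlap, against 9.87% of all genes.

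Il12rb2 was the receptor gene with the clearest difference. Its level was 49.98, 26.6, 21.8 and 13.6 CPM in WT, 23.4, 19.9, 17.7 and 22.5 CPM in Y665H and 88.4, 71.7, 111 and 135 CPM in Y665F cells. Every Y665F library was above every library of the other genotypes. The log2 fold change was 1.86 against WT (SE 0.30, adjusted p = 0.00311) and 2.29 against Y665H (SE 0.31, adjusted p = 9.67e-05).

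Its partner Il12rb1 was low and followed it in part. It was 6.15, 8.03, 10.1 and 4.53 CPM in WT, 2.57, 2.43, 4.45 and 2.56 CPM in Y665H and 11.2, 8.99, 4.88 and 14.2 CPM in Y665F cells. The Y665H values rested on 5 to 64 reads, and library 3 of each mutant genotype lay toward the other. Y665F was higher than Y665H by a log2 fold change of 1.66 (SE 0.37, adjusted p = 0.00759), and against WT the change was 0.47 (adjusted p = 0.425).

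The same pair differed between Y665F cells with and without IL-2 and IL-7. No culture time is given for the cells without interleukin, so that culture and interleukin cannot be told apart. Il12rb2 was 13.0, 20.5 and 20.2 CPM without interleukin, a log2 fold change of 2.497 between cells with it and without (SE 0.34, adjusted p = 5.14e-05), and Il12rb1 was 1.71, 3.06 and 2.15 CPM, a log2 fold change of 2.11 (SE 0.40, adjusted p = 0.00188). Libraries with and without interleukin did not overlap for either gene. These were 2 of 10 genes called, where 2.97% of all genes were called. The summed NK cell list moved with them, at 25.1 to 30.8 CPM without and 68.1 to 92.6 CPM with interleukin, and the CD8 genes had medians of 496 and 925 CPM with overlapping ranges. Their part in the difference was not tested. Il10ra also had an adjusted p under the threshold, at 51.7, 75.2 and 65.2 CPM without and 120, 116, 80.2 and 126 CPM with interleukin, but its log2 fold change of 0.79 (SE 0.20, adjusted p = 0.0255) was under the fold minimum, and 3.85% of all genes had an adjusted p under 0.05.

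The IL-18 receptor chains were high in all splenic T cells. Il18rap was 130, 80.4, 64.2 and 81.4 CPM in WT, 26.6, 89.9, 88.1 and 50.8 CPM in Y665H and 145, 165, 149 and 178 CPM in Y665F cells. Y665F lay above both other genotypes in every library, with a log2 fold change of 1.32 against Y665H (SE 0.30, adjusted p = 0.00892) and of 0.84 against WT (SE 0.29, adjusted p = 0.125). Il18r1 was 285, 194, 206 and 210 CPM in WT, 116, 248, 219 and 168 CPM in Y665H and 333, 315, 266 and 286 CPM in Y665F cells, with a log2 fold change of 0.68 against Y665H (adjusted p = 0.0528) that was not called. Neither gene was called between Y665F cells with and without interleukin, with log2 fold changes of 0.24 for Il18rap and -0.14 for Il18r1.

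Il1rl1, the IL-33 receptor, was 8.15, 5.62, 4.08 and 5.38 CPM in WT, 2.85, 1.46, 3.82 and 2.38 CPM in Y665H and 19.0, 14.7, 19.5 and 20.2 CPM in Y665F cells. The 3 genotypes did not overlap, though the gap between WT and Y665H, from 4.08 to 3.82 CPM, was narrow. Y665H libraries 1 and 2 were shallow, with 3310342 and 2017012 gene-assigned reads, so that their values rested on few reads. Y665F was higher than Y665H by a log2 fold change of 2.68 (SE 0.40, adjusted p = 2.37e-04) and than WT by 1.66 (SE 0.35, adjusted p = 0.0155). The call against WT ended without WT library 2 (adjusted p = 0.0534), WT library 4 (0.0579) or Y665F library 4 (0.0663). Without interleukin Il1rl1 was 15.3, 40.2 and 9.39 CPM in Y665F cells, around the stimulated range. Library 2, the highest of them, held 31.6 CPM of mast cell and basophil markers, against 11.2 and 10.3 in libraries 1 and 3. Its neutrophil list summed to 199.5 CPM against 71.95 and 98.2, and its regulatory T cell list to 361 CPM against 218 and 236.5. The part of these cells was not tested.

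Il1r2 rested on few reads, 9 to 18 in WT, 3 to 14 in Y665H and 35 to 75 in Y665F cells. Its level was 0.748, 0.652, 0.741 and 0.984 CPM in WT, 1.14, 1.46, 0.973 and 1.28 CPM in Y665H and 3.12, 4.32, 10.7 and 5.30 CPM in Y665F cells. Y665F was above all other stimulated libraries, by a log2 fold change of 2.84 against WT (SE 0.51, adjusted p = 0.00574) and of 2.26 against Y665H (SE 0.55, adjusted p = 0.0142). Without the 3 shallowest libraries, 2 of Y665H and 1 of Y665F, the difference from Y665H was 1.99 (adjusted p = 0.14) and was not called. Il1r1 was at most 3.28 CPM in every splenic T cell library.

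The signalling chain of the interferon-gamma receptor was lower in Y665F than in Y665H cells. Ifngr2 was 63.6, 64.2, 77.2 and 55.9 CPM in WT, 124, 59.3, 74.7 and 102 CPM in Y665H and 51.5, 53.4, 37.5 and 43.0 CPM in Y665F cells. Y665F was lower than Y665H by -0.95 on the log2 scale (SE 0.21, adjusted p = 0.00815), under the fold minimum, where 6.18% of all genes had an adjusted p under 0.05. Without Y665H library 2 or 3 or Y665F library 2 the same difference passed the fold minimum, at -1.10, -1.04 and -1.03. Ifngr1 was 960, 1184, 1388 and 886 CPM in WT, 435, 637, 712 and 517 CPM in Y665H and 1238, 1020, 482 and 777 CPM in Y665F cells. All Y665H libraries were below all WT libraries, with a log2 fold change of -0.94 (SE 0.24, adjusted p = 0.174) that was not called. Y665H called 0 of the 10 genes against WT with edgeR, where 0.0717% of all genes were called, and 0 with DESeq2, and 4 had an unadjusted p under 0.05. Il10ra lay between 80.2 and 158 CPM in the 12 stimulated libraries with no call.

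Other cells were present in these samples in amounts that moved with genotype. The neutrophil list, of which 7 of 8 genes were in the files, summed to 9.73 to 17.3 CPM in WT, 22.8 to 95.5 in Y665H and 74.9 to 311 in Y665F cells, and 5 of its 7 genes were called higher in Y665F than in WT cells. None of the 7 was at 0 in any of these groups. The NK cell list summed to 30.5 to 137, 14.3 to 32.2 and 68.1 to 92.6 CPM in the same order, with Klra8 at 0 in all of them, and its 3 tested genes were called higher in Y665F than in Y665H cells. The mast cell and basophil list summed to 2.06 to 7.40, 3.71 to 9.59 and 7.51 to 10.7 CPM. Among T cells, the CD8 effector or memory list summed to 174 to 298, 114 to 173 and 167 to 480 CPM in the same order. The regulatory T cell list summed to 293 to 403, 144 to 269 and 219.9 to 460 CPM, and Cd4 was 302 to 372, 193 to 365 and 79.0 to 218 CPM. Apart from Klra8, no gene of these lists was at 0 in all libraries of a genotype. The part of these cells in the levels of the receptor genes, Il1r2, Il1rl1, Il12rb2 and Il18rap included, was not tested. Y665F library 3 had the highest B cell, erythroid and neutrophil sums of the splenic T cell libraries, but not the highest NK cell or monocyte sums. Without this library the log2 fold changes between Y665F and Y665H were 2.24 for Il12rb2, 1.35 for Il18rap, 2.65 for Il1rl1, 1.86 for Il1r2 and 1.85 for Il12rb1, all still called.

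**Figure D3:**
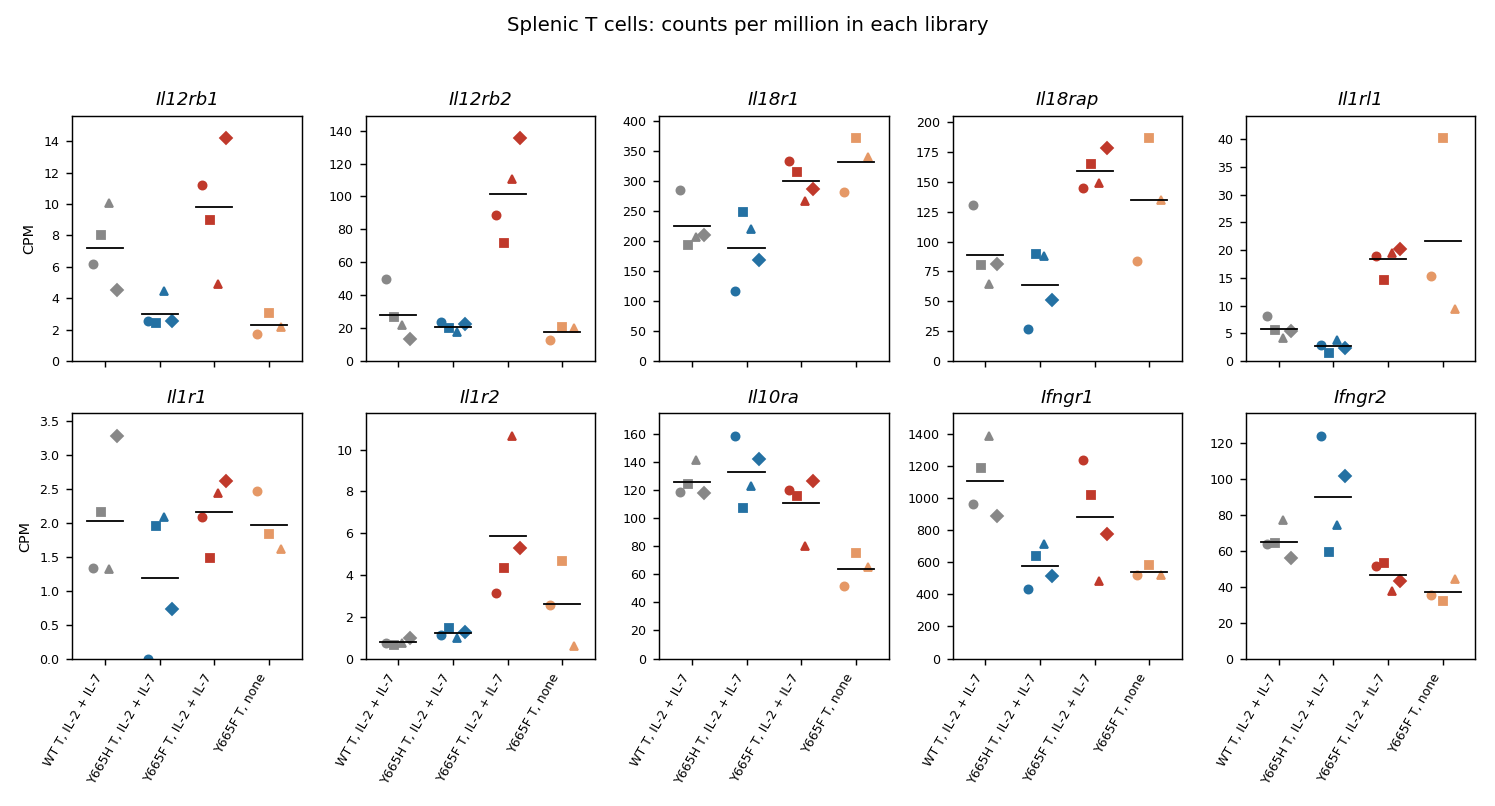
CPM of the 10 receptor genes in each splenic T cell library (points; circle, square, triangle and diamond for libraries 1 to 4) by genotype and culture, with the group mean as a line. Y665F libraries with IL-2 and IL-7 lie above all WT and Y665H libraries for Il12rb2, Il18rap, Il1rl1 and Il1r2, and Il12rb1 and Il12rb2 are lower in Y665F cells without interleukin.

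The pathway list showed 4 of 37 genes higher and none lower in Y665F than in WT splenic T cells, where 1.15% of all genes were called higher. They were Il1rn, the secreted IL-1 antagonist, by a log2 fold change of 3.001, Ifng by 2.27, the interferon-induced GTPase Gbp2 by 1.82 and Il1b by 1.79. Against Y665H cells, where 3.43% of all genes were called higher, 6 were higher and none lower, Il1rn by 3.39, Ifng by 3.31, Gbp2 by 2.30, Ciita by 2.06, Tbx21 by 1.87 and Irf1 by 1.63. With interleukin 8 were higher and 1 lower in Y665F cells, where 2.97% of all genes were called in either direction, among them Gbp2 by 4.01, Cxcl10 by 3.44, Irf1 by 2.41 and Ifng by 2.15, with Il1rl2, the IL-36 receptor of the cluster on chromosome 1, lower by -1.22. Y665H cells had no call in the list against WT. The neutrophil list summed to 9.73 to 17.3 CPM in stimulated WT and 74.9 to 311 CPM in stimulated Y665F cells. The part of other cells in these pathway genes, Il1rn and Il1b among them, was not tested.

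In spleen both chains of the IL-18 receptor had their highest mean in Y665F and their lowest in Y665H, but only Il18r1 separated all genotypes. Il18r1 was 64.0, 66.3, 50.4 and 56.0 CPM in WT and 40.4, 32.1, 30.8, 31.4 and 28.9 CPM in Y665H spleens, and its lowest, median and highest values in the 7 Y665F spleens were 77.5, 87.1 and 102 CPM. The genotypes did not overlap. Y665F was higher than Y665H by a log2 fold change of 1.44 (SE 0.10, adjusted p = 4.33e-08) and than WT by 0.58 (SE 0.10, adjusted p = 0.00163), and Y665H was lower than WT by -0.85 (SE 0.11, adjusted p = 5.26e-04), the last 2 under the fold minimum. An adjusted p under 0.05 was found for 12.2% of all genes between Y665F and WT. Il18rap was 61.9, 53.4, 54.2 and 54.4 CPM in WT, 35.2, 34.2, 40.6, 30.8 and 29.5 CPM in Y665H and from 48.6 to 84.3 CPM with a median of 70.4 in Y665F spleens. The Y665F range took in all WT values, and Il18rap did not pass between these genotypes. It was lower in Y665H than in WT by -0.72 (adjusted p = 0.00268) and higher in Y665F than in Y665H by 0.98 (SE 0.12, adjusted p = 3.82e-05), just under the fold minimum, which it passed without Y665H library 3 (1.07) or Y665F library 1, 3 or 7 (1.02, 1.06 and 1.004).

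T cell content moved with these values. The T cell list, with none of its 7 genes at 0, summed to 410 to 488 CPM in WT, 281 to 423 in Y665H and 520 to 716 in Y665F spleens. Measured relative to this list, which placed the median of all genes at -1.004 on the log2 scale in Y665F against Y665H, Il18r1 was higher in Y665F by 0.46 (adjusted p = 0.00209) and no longer called, and Il18rap differed by -0.02 (adjusted p = 0.909). Relative to the same list the median of all genes was 0.50 in Y665H against WT and -0.50 in Y665F against WT, and Il18r1 stood at -0.37 (adjusted p = 0.034) and 0.09 (adjusted p = 0.588). The list of NK cells, which also carry the IL-18 receptor, summed to 49.95 to 68.6, 18.9 to 32.0 and 16.4 to 56.3 CPM. The CD8 genes summed to 162 to 185 CPM in WT, 76.4 to 108 in Y665H and 199 to 304 in Y665F spleens, without overlap. The CD8 effector or memory list summed to 99.5 to 121, 78.5 to 106 and 153 to 209 CPM, and the regulatory T cell list to 129.9 to 142, 86.3 to 131 and 170 to 224 CPM. The part of these cells in the IL-18 receptor levels was not tested beyond the scaling by the T cell list.

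**Figure D4:**
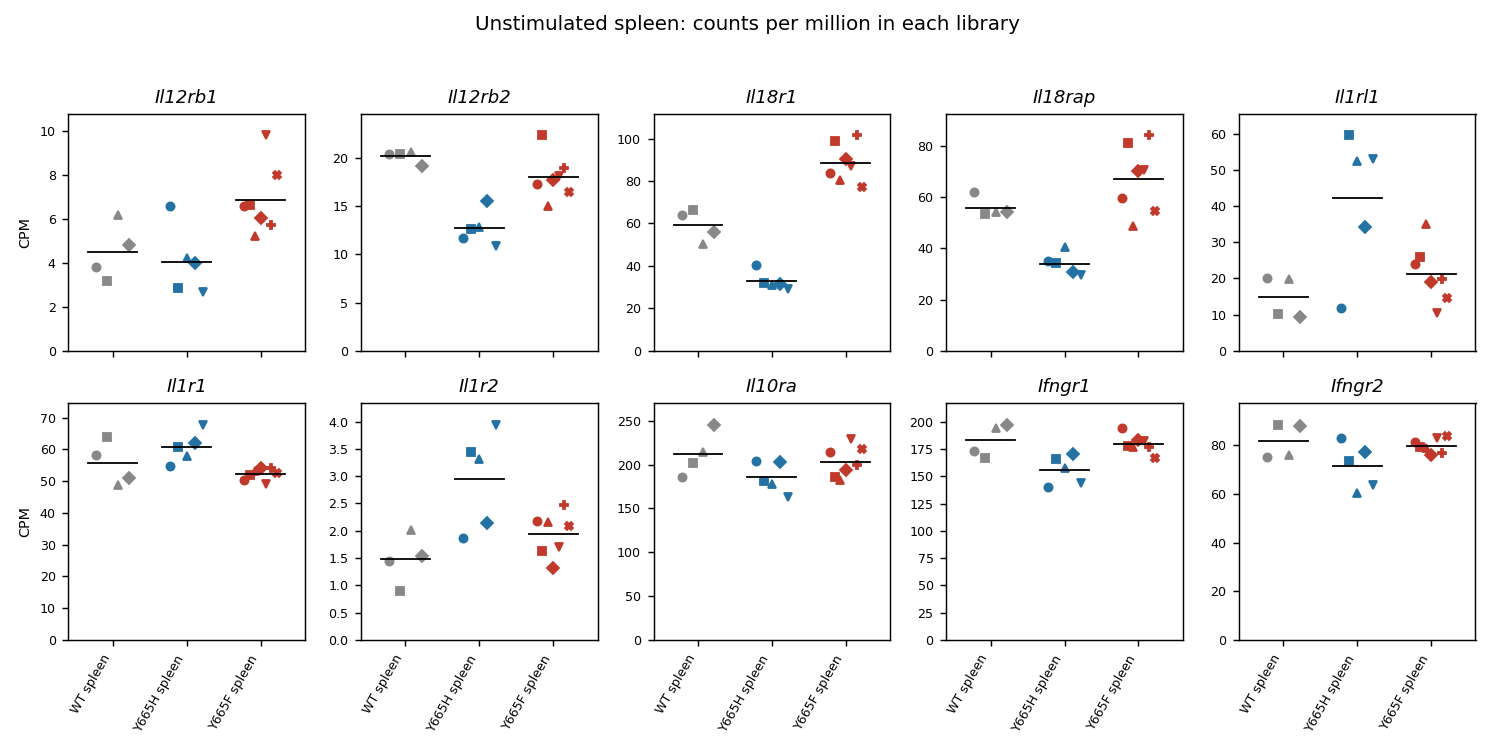
CPM of the 10 receptor genes in each spleen library (points; marker shape gives the library number) by genotype, with the group mean as a line. Il18r1 separates the 3 genotypes without overlap, and the Y665H library 1 (circle) is the lowest Y665H value of Il1rl1, at 11.9 CPM, and the highest of Il18r1, at 40.4 CPM.

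Il1rl1 was highest by its mean in Y665H spleens. It was 20.1, 10.2, 19.98 and 9.41 CPM in WT spleens, 11.9, 59.7, 52.6, 34.4 and 53.2 CPM in Y665H spleens and from 10.48 to 35.0 CPM with a median of 19.8 in Y665F spleens. Y665H library 1 lay within the WT range, the other 4 above all WT libraries, and 3 of these above all Y665F libraries. Il1rl1 was the 1 gene of the 10 called between Y665H and WT, higher by a log2 fold change of 1.51 (SE 0.40, adjusted p = 0.0134), where 4.37% of all genes were called. Without Y665H library 1 it was 1.78 (adjusted p = 4.89e-04) and without WT library 2 it was 1.39 (adjusted p = 0.0571), which ended the call.

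Against Y665H, Y665F spleens were lower in Il1rl1 by -1.001 (SE 0.33, adjusted p = 0.0338), which with Il18r1 made 2 of 10 genes called, where 5.28% of all genes were. This value sat on the fold minimum, was -1.26 (adjusted p = 0.00128) without Y665H library 1, and fell short of the minimum or of the adjusted p in 7 of the 12 fits that left out 1 library of these genotypes. The libraries concerned were Y665F 4, 5, 6 and 7 (-0.96, -0.90, -0.99 and -0.95) and Y665H 2, 3 and 5 (-0.84, -0.90 and -0.89).

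The decoy Il1r2 was 1.45, 0.9003, 2.01 and 1.54 CPM in WT, 1.86, 3.44, 3.32, 2.14 and 3.94 CPM in Y665H and 1.32 to 2.47 CPM in Y665F spleens. It was higher in Y665H than in WT by a log2 fold change of 0.99 (SE 0.25, adjusted p = 0.0105), just under the fold minimum, and by 1.14 (adjusted p = 0.00185) without Y665H library 1. It also passed the minimum without WT library 1 or 3 (1.00 and 1.17) or Y665H library 4 (1.08). Il1r1, at 48.9 to 67.8 CPM in all 16 spleens, differed between Y665F and Y665H by -0.22 (adjusted p = 0.0272).

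The neutrophil and erythroid lists, like Il1rl1 and Il1r2, had their highest median in Y665H spleens. The erythroid median was lower in Y665F than in WT spleens, at 777 and 1039 CPM, unlike the medians of Il1rl1 and Il1r2. The neutrophil list summed to 192 to 310 CPM in WT, 114 to 1486 in Y665H and 367 to 907 in Y665F spleens, with no gene of the 7 at 0, and the erythroid list to 716 to 1586, 769 to 5126 and 448 to 1475 CPM. Within the Y665H group the library with 114 CPM of the neutrophil list had 11.9 CPM of Il1rl1, and the library with 359 CPM of it had 34.4 CPM. The same libraries also had the lowest erythroid sums of the group, at 769 and 3594 CPM. The first of them had the highest T cell list of the group, at 423 CPM against 281 to 317 CPM in the others. The mast cell and basophil list summed to 10.3 to 10.8, 9.11 to 15.2 and 12.6 to 21.1 CPM. The part of these cells in the Il1rl1 and Il1r2 levels was not tested.

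**Figure D5:**
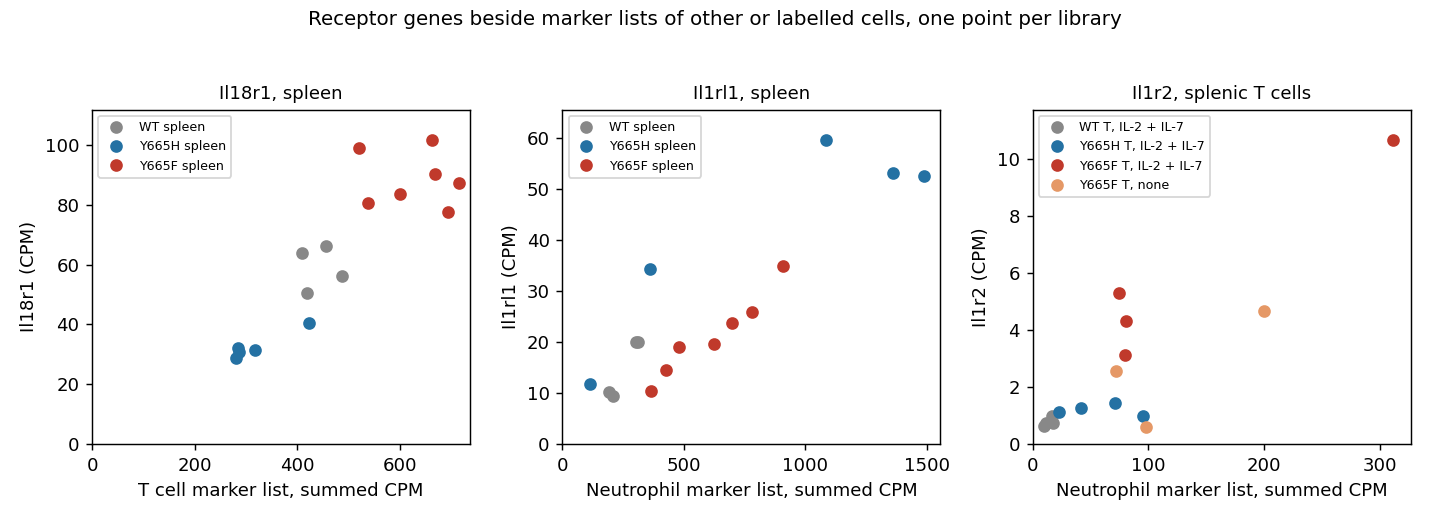
Level of a receptor gene (vertical axis, CPM) against the summed CPM of a marker list (horizontal axis), with 1 point per library coloured by group, for Il18r1 and the T cell list in spleen, Il1rl1 and the neutrophil list in spleen, and Il1r2 and the neutrophil list in splenic T cells. The Y665H spleen at 114 CPM of the neutrophil list has the lowest Il1rl1 of its group, and Y665F spleens have both the highest T cell list and the highest Il18r1.

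The other receptor genes of the spleen stayed closer together. Il12rb2 was 20.4, 20.5, 20.7 and 19.2 CPM in WT and 11.7, 12.6, 12.9, 15.5 and 10.9 CPM in Y665H spleens, lower by -0.66 (SE 0.11, adjusted p = 0.00148), and 15.1 to 22.4 CPM in Y665F spleens, higher than Y665H by 0.50 (adjusted p = 0.00124). Il12rb1 was 2.67 to 9.82 CPM over all spleens and higher in Y665F than in Y665H by 0.77 (adjusted p = 0.016). Ifngr1 was lower in Y665H than in WT by -0.23 (adjusted p = 0.0282), with means of 156 ± 13.2 (SD, n = 5) and 183 ± 15.1 CPM (SD, n = 4). Ifngr2 and Il10ra did not pass in any spleen comparison. Counting without a fold minimum, 6 of 10 genes differed between Y665H and WT and 8 of 10 between Y665F and Y665H, beside 19.8% and 25.8% of all genes. Y665F spleens called 0 of the 10 against WT with edgeR and with DESeq2, where 1.2% of all genes were called, and 2 had an unadjusted p under 0.05, Il12rb1 and Il18r1.

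Of the pathway list, 1 gene was called in the spleen, Socs1, which was higher in Y665F than in Y665H by a log2 fold change of 1.07, where 5.28% of all genes were called. Its level was 3.11 ± 0.767 (SD, n = 7) and 1.48 ± 0.509 CPM (SD, n = 5). Without a fold minimum, 16 of the 37 were higher and 1 lower in that comparison, beside 25.8% of all genes in either direction. Between Y665H and WT, 1 was higher and 7 lower in Y665H, beside 19.8% of all genes.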

How the data were processed

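RNA-seq was deposited for 61 mouse libraries in 17 groups. As deposited, the values were raw read counts per gene that the authors made with Trimmomatic 0.36, STAR and HTSeq 0.9.1 on mm10. The submitters' processing notes also name FastQC 0.11.9, SAMtools 1.9 and Picard 2.9.2. The libraries were stranded, paired-end and depleted of ribosomal RNA. The strand setting and the annotation of the counting are not given in the sources used here. The 5 closing HTSeq lines of each file entered neither library sizes nor tests, and 28.4% to 36.9% of reads in CD4+, 63.9% to 85.7% in splenic T cell and 62.8% to 69.4% in spleen libraries had no gene.

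Groups were taken from the sample labels. Genes with at least 10 reads in total over the libraries of a fit were tested with the quasi-likelihood test of edgeR 4.0.16 (R 4.3.3, TMM normalization), 20113 genes in null CD4+ cells, 20509 in WT CD4+ cells, 21975 in both, 22313 in splenic T cells and 19418 in spleens, with Benjamini-Hochberg adjustment and no covariate. Libraries with fewer reads give less precise values, which matters most in splenic T cells. CPM used TMM within each material, so that levels of CD4+ cells, splenic T cells and spleens were scaled separately. The mean ± SD is over libraries. No 2 libraries of a group agreed within sampling noise. All 10 receptor genes are named, whatever their values, and further genes come from fixed lists. The values of 1 gene of the pathway list are not reported here. The members and lists were chosen with earlier results of these data known. The study's methods name RUVSeq without its variant, and it was not used. Null CD4+ libraries with the same replicate number deviated together in all 30 pairs (lowest r 0.184), WT libraries in 29 of 30, splenic T cells in 5 of 21 and spleens in 4 of 13. DESeq2 1.42.0, other size factors, other filters, groups fitted alone, the replicate block, libraries left out and scaling to the T cell list were tried as alternatives. Every fit was also run on simulated counts, with changes placed only in genes of higher count and no shared effect of replicate number. Changes in genes of low count and libraries that deviate together were not covered. Gene positions are from GENCODE on GRCm38 and promoter windows from RefSeq.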

Additional observations from a re-analysis of the deposited data

Results flagged for a closer look

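Of 60 combinations of a receptor gene and a group of 4 to 7 splenic T cell or spleen libraries, 4 held a library whose gap to the nearest other was above the 95% limit of Dixon's test, which chance alone passes in about 1 of 20 groups. Il12rb1 was 4.448 CPM in Y665H splenic T cell library 3, the highest of its group, and the next value was 2.57 CPM. Il18r1 was 40.35 CPM in Y665H spleen library 1, the highest of its group, with the next at 32.1 CPM. The WT spleens gave the other 2, with Il12rb2 at 19.23 CPM in library 4, below the next at 20.4 CPM, and Il18rap at 61.94 CPM in library 1, above the next at 54.4 CPM.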

How the results depend on the processing

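Single receptor genes kept their side of the thresholds in 3574 combinations of a comparison and an alternative. They passed only under the alternative in 67 and failed only under it in 26, and no called value changed sign. In 171 of the 3574 the sign differed with neither value past the thresholds. The counts of called receptor genes moved as follows, and where the alternative did not itself remove libraries or thresholds the cause was not tested. For N642H against the empty vector in null cells the count went from 1 to 2 with no filter or DESeq2 and to 3 with the replicate block or the groups compared alone. For Y665F it went from 1 to 2 with no filter or DESeq2 and to 3 with the block. In WT cells N642H went from 0 to 2 and Y665F from 0 to 1 with the block, and both to 1 without a fold minimum, and N642H against STAT5B to 1 with the block. Null cells with STAT5B against WT cells went from 0 to 1 with no filter and to 2 with the block, groups alone or DESeq2. The differences of response went from 0 to 1 with the block and, with a block within each background chosen after seeing the data, to 1 for N642H and 2 for Y665F. Null against WT went from 3 to 4 with DESeq2 or no fold minimum. In splenic T cells, Y665F against Y665H went from 5 to 4 without the 3 shallowest libraries and to 6 without a fold minimum, and the interleukins from 2 to 3 without one. In spleen, Y665F against WT went from 0 to 1 without a fold minimum. Y665H against WT went from 1 to 2 with groups alone or relative to the T cell list and to 6 without a fold minimum. Y665F against Y665H went from 2 to 1 with RLE factors, the block, groups alone or DESeq2, to 8 without a fold minimum and to 3, all lower, relative to the T cell list.

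The block in WT cells gave Il12rb2 with N642H at 1.19 (adjusted p = 2.86e-06). Il18r1 stood at 1.18 (adjusted p = 4.58e-06) with N642H and at 1.01 (adjusted p = 3.36e-05) with Y665F. In WT cells 29 of 30 pairs of equal number deviated together, with a median correlation of 0.649, against 0.465 in null cells. The lowest was 0.0114, and for this reason the main results of WT cells were left without the block. This does not show that the WT libraries were unpaired. The splenic libraries share only a number. The Il18r1 differences of response, null minus WT, were -1.83 (adjusted p = 2.73e-05) with N642H and -1.69 (adjusted p = 9.17e-05) with Y665F under the block, and -1.84 (adjusted p = 5.94e-07) and -1.69 (adjusted p = 2.79e-06) with a block within each background. With 1 library left out the counts ranged from 1 to 2 for N642H and 0 to 2 for Y665F in null cells, 0 to 1 for N642H in WT cells, 2 to 4 for null against WT, 0 to 2 for null with STAT5B against WT, 2 to 3 for Y665F against WT and 5 to 6 for Y665F against Y665H splenic T cells, 0 to 2 for Y665H against WT and 1 to 3 for Y665F against Y665H spleens. It was 2 in each for the interleukins and 0 in each elsewhere. Il12rb1 with N642H in WT cells was called without N642H library 3, at 1.03 (adjusted p = 0.00322). Shallow splenic T cell libraries limit Il1r2, Il1rl1 and Il12rb1, which had under 20 reads in some.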
